A study of Mus musculus with 4 samples.

Results

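Osteopontin, encoded by Spp1, and the genes of its receptors were followed across 4 mammary gland tumours of MMTV-R26Met mice by bulk RNA sequencing of poly-A RNA. The set holds 10 genes of the 28440 rows of the count table: Spp1, the hyaluronan and osteopontin receptor Cd44, and the integrin subunits Itgav, Itgb1, Itgb3, Itgb5, Itgb6, Itga4, Itga5 and Itga9, whose protein products bind osteopontin as alpha-beta pairs. The genes were taken by symbol. Spp1 was chosen by its very high counts in 1 tumour, so its level by tumour is given as a description without a test, and the receptor genes were chosen for what they bind. All 10 genes were found, each with 1 row, and all 10 passed the filter on low counts.

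All 4 tumours carry the genotype MMTV-R26Met and stand for breast cancer of the triple-negative kind. In these mice Cre recombinase, driven by the mouse mammary tumour virus promoter that is active mainly in mammary epithelium, turns on a transgene for the receptor tyrosine kinase Met at Rosa26. They form 1 group, with no normal, treated or control tissue, and the labels give neither the age of the mice nor whether each tumour came from a separate mouse. P-values therefore measure only the spread between these 4 samples. Library totals ran from 35220504 to 42809015 counts. Each pair of libraries differed beyond counting error (chi-square over its degrees of freedom, 142 to 415), so no library was a copy of another. The epithelial genes Krt8 and Epcam were abundant in each tumour, at 784 to 1232 and 476 to 756 CPM (counts in proportion to the TMM-scaled library total).

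Osteopontin is a secreted, heavily phosphorylated protein of bone, milk and inflamed tissue, and in tumours it is made by cancer cells and by macrophages. It carries an RGD (arginine-glycine-aspartate) motif that is bound by the integrins αvβ1, αvβ3, αvβ5, αvβ6 and α5β1. Cleavage by thrombin next to this motif exposes a further site for α9β1 and α4β1. CD44, best known as the hyaluronan receptor, is a receptor for osteopontin outside the integrin family, and integrin pairs and CD44 pass the signal on to cell adhesion, migration and survival.

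The coding stretch that carries the motif and the promoter of Spp1 are shown because the receptors described here bind the first and because the level of Spp1 is what sets 1 tumour apart. The first runs over chr5:104439475-104439516 on the plus strand (GRCm38, GENCODE transcript Spp1-201, exon 6 of 7, coding) and holds the only RGD among 294 codons, at codon 144. Its capitals mark the RGD codons, and the agg after them is the arginine codon 153, next to the thrombin site. The second is the window from 250 bases before to 50 bases after the start of Spp1 in RefSeq (GRCm38.p6, chr5:104434861-104435160, plus strand), with capitals for motif matches.
Spp1 RGD stretch: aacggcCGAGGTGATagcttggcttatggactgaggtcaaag
Spp1 promoter: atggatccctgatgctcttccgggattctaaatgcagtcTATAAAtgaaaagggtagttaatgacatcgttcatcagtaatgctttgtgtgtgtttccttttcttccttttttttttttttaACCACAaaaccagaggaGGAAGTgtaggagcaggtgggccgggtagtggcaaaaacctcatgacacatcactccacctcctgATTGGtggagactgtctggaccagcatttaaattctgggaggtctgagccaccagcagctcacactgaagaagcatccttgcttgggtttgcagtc

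Of 9 motifs searched on both strands of this window, 4 were found, and none of them overlapped another. The RUNX core (TGTGGT, found as its reverse complement ACCACA) began 128 bases before the start, the ETS core (GGAAGT) 111 bases before it, the CCAAT box (CCAAT, found as ATTGG) 46 bases before it, and TATAAA 211 bases before it. Among 32851 promoter windows of the same length these occurred in 16.8, 23.8, 37.4 and 13.6%, in that order. The AP-1 site (TGANTCA), the E-box (CACGTG), the GC box (GGGCGG), the STAT site (TTCNNNGAA) and a vitamin D receptor hexamer (GGTTCA) had no match in this window. A match is a run of letters, not evidence of binding. RefSeq windows were found for 9 of the 10 genes. The Spp1 gene itself (Entrez ID 20750) spans chr5:104435111-104441053.

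Spp1 was high in tumour 4 and far lower in the other tumours. Its counts were 20694, 16766, 29597 and 406462 in tumours 1 to 4, and its levels 486.7, 483.6, 771 and 9899 CPM, a mean of 2910 ± 4661 CPM (SD, n = 4). Tumours 1 and 2 were alike, tumour 3 stood somewhat above them, and tumour 4 stood 12.8-fold above tumour 3 and 20.5-fold above the lowest, tumour 2. In tumour 4 Spp1 had the 4th highest count of all rows (counts are not corrected for length), whereas it ranked 240, 234 and 98 in tumours 1, 2 and 3. It took up 0.973% of all counts of tumour 4 (95% exact binomial interval 0.970 to 0.976%), against 0.0483% (0.0477 to 0.0490%), 0.0476% (0.0469 to 0.0483%) and 0.0802% (0.0793 to 0.0812%) of tumours 1, 2 and 3. These intervals cover counting error only. Among the 15808 genes tested, 221 had a wider range between tumours. Bulk counts cannot tell more cells that make osteopontin from more RNA in each cell.

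**Figure D1:**
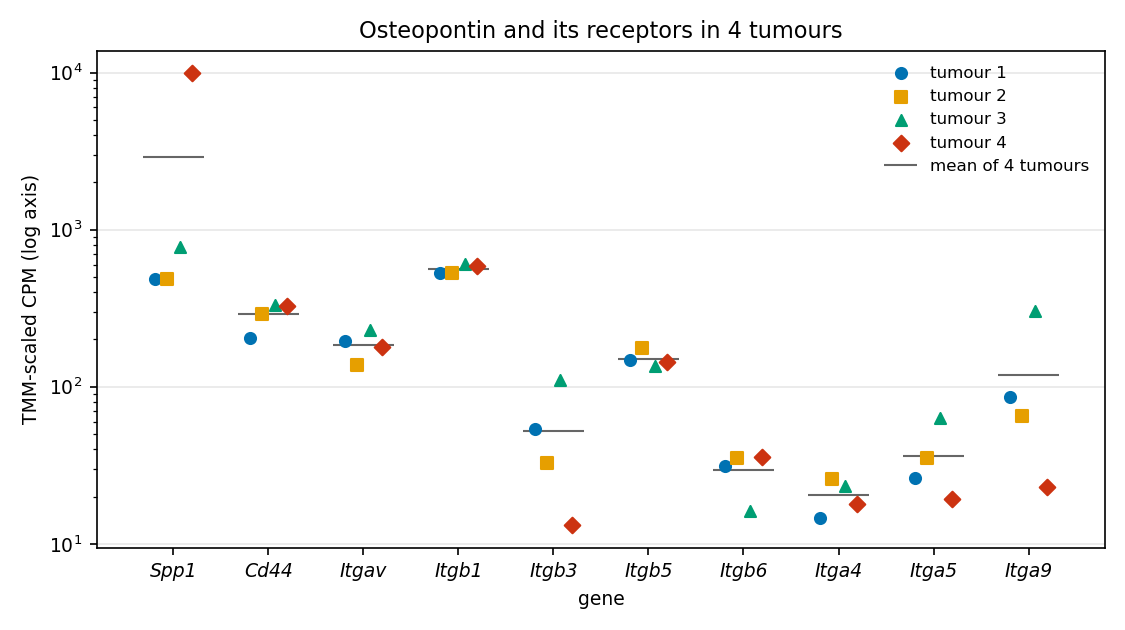
TMM-scaled CPM on a log axis of Spp1 and its 9 receptor genes in each of the 4 tumours, with a bar at the mean of the tumours. Spp1 reaches 9899 CPM in tumour 4, far above its 483.6 to 771 CPM elsewhere, while both Itga9 and Itgb3 peak in tumour 3 and are lowest in tumour 4.

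The receptor genes did not share the pattern of Spp1. A test asked of each gene whether its tumours were more spread out than is usual at its expression level (edgeR, adjusted over all genes, threshold 0.05). Of the 9 receptor genes 2 passed, Itga9 and Itgb3, while 574 of all 15808 genes (3.63%) passed. The count itself was not tested. The median range between the lowest and the highest tumour was 1.78-fold over the receptor genes and 1.72-fold over all genes tested. Of the receptor genes 6 were highest in tumour 3 and 1, Itgb6, in tumour 4, whereas 29.7 and 28.5% of all genes tested were highest in tumours 3 and 4. Some of these were near-ties. Cd44 and Itgb1 in tumour 3 were only 1.01- and 1.02-fold above tumour 4, and Itgb6 in tumour 4 was 1.01-fold above tumour 2.

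Itga9 (chr9:118606709-118901003), the alpha subunit of the integrin α9β1 that binds thrombin-cleaved osteopontin and tenascin-C, had the widest range of the receptor genes. It had 85.5, 65.6, 303 and 23.0 CPM in tumours 1 to 4 (119 ± 125, SD, n = 4). Tumour 3 was 3.55-fold above the next tumour and tumour 4 was 2.85-fold below the next, a range of 13.2-fold (edgeR adjusted p = 0.000131). Tumour 4, the richest in Spp1, thus had the lowest level of this receptor subunit. It had the lowest level of 3 of the 9 receptor genes (33.3%), beside 27.8% of all genes tested. The call of Itga9 was lost without tumour 3 (edgeR adjusted p = 0.227) and kept when tumour 1, 2 or 4 was left out (0.000377, 0.00243 and 0.0134).

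Itgb3 (chr11:104608000-104670476), the beta subunit of the osteopontin receptor αvβ3, also known from osteoclasts, platelets and growing vessels, took the same order of tumours. Its levels were 53.6, 32.8, 110 and 13.1 CPM (52.4 ± 41.9, SD, n = 4), a range of 8.39-fold (edgeR adjusted p = 0.0112). The highest was again tumour 3 and the lowest tumour 4. Without tumour 3 or tumour 4 it did not pass (edgeR adjusted p = 0.299 and 0.403). Other cells carry Itgb3 too, and the summed markers of platelets and megakaryocytes (14.8, 29.8, 17.3 and 10.3 CPM) and of endothelium (199, 154, 176 and 151 CPM) were also lowest in tumour 4. They were highest in tumours 2 and 1, not in tumour 3. The endothelial sums of tumours 2 and 4 were close, and 1 of the 6 endothelial genes, Vwf, was highest in tumour 4 (40.2, 35.6, 26.6 and 56.9 CPM). Summed osteoclast markers (51.6, 76.5, 68.7 and 84.0 CPM) were instead highest in tumour 4. In tumours 1 to 3 the platelet sum rested mostly on Itga2b, which had 10.5, 25.8, 14.1 and 3.60 CPM in tumours 1 to 4. Pf4 was highest in tumour 4 (4.14, 3.37, 2.14 and 6.21 CPM) and made up most of the sum there. Gp1ba and Gp9 had at most 3 counts in any library. The part of these cells in the Itgb3 level was not tested.

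Itga5, which pairs with β1 to form the fibronectin receptor, was also highest in tumour 3 and lowest in tumour 4 but did not pass. It had 26.3, 35.1, 63.3 and 19.4 CPM in tumours 1 to 4 (36.0 ± 19.3, SD, n = 4), a range of 3.26-fold (edgeR adjusted p = 0.909). Itga4, the alpha subunit of the leukocyte receptor α4β1, had 14.6, 26.02, 23.3 and 18.05 CPM. Its levels differed by 1.78-fold at most (edgeR adjusted p = 1). Itgb6, the beta subunit of the epithelial integrin αvβ6, had 31.3, 35.4, 16.2 and 35.8 CPM. Only tumour 3 stood below the others here (edgeR adjusted p = 1), and Itgb6 was therefore low in the tumour where Itgb3 was high.

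Itgb1 and Itgb5 were even between tumours, whereas Itgav and Cd44 had ranges close to the median of all genes. Itgb1, the beta subunit shared by α4, α5, α9 and αv, had 532, 531, 603 and 589 CPM (564 ± 37.7, SD, n = 4), and 15499 of the 15808 genes tested had a wider range. Itgav, the alpha subunit common to the αv integrins, had 197, 137, 229 and 178 CPM, and Itgb5, the beta subunit of αvβ5, had 147, 176, 136 and 143 CPM. Cd44 had 205, 292, 331 and 328 CPM (289 ± 58.6, SD, n = 4) and was lowest in tumour 1. None of these 4 genes passed (edgeR adjusted p = 1 for each), with ranges of 1.14-fold for Itgb1, 1.30-fold for Itgb5, 1.61-fold for Cd44 and 1.67-fold for Itgav. Counts per gene do not separate the splice forms of Cd44. Esrp1 and Esrp2, epithelial splicing factors that act on Cd44, were lowest in tumour 3 (95.4 and 54.5 CPM) and highest in tumour 4 (216 and 87.5 CPM), and neither passed.

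**Figure D2:**
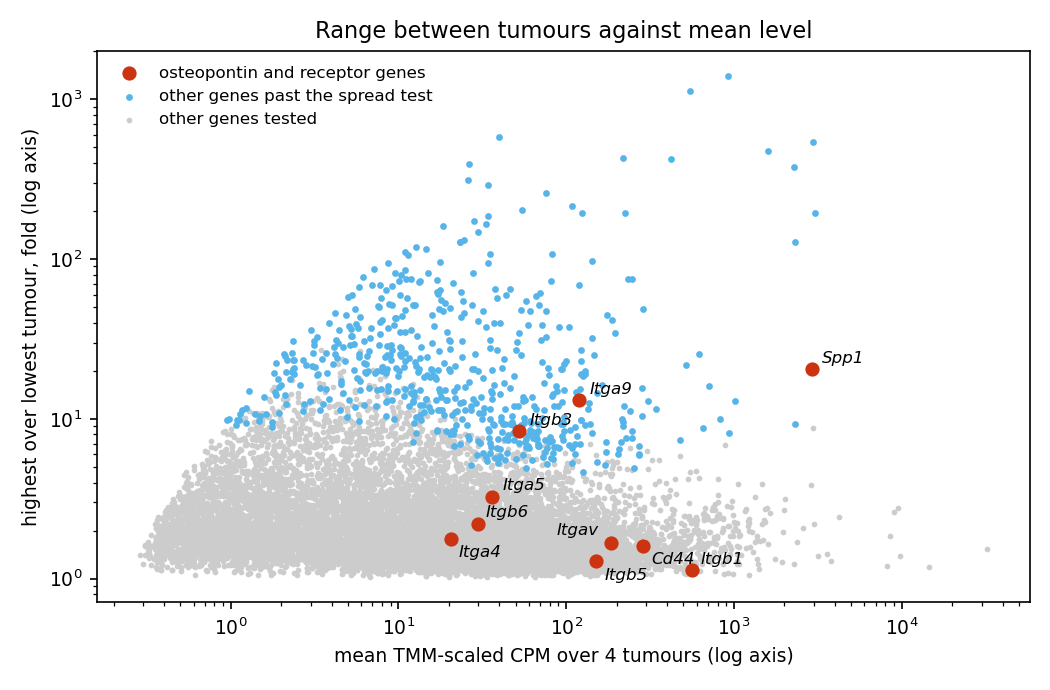
Range between the highest and the lowest tumour (fold, log axis) against mean TMM-scaled CPM (log axis) for the 10 genes, for other genes past the spread test and for the remaining genes tested. Spp1, Itga9 and Itgb3 lie high in the cloud at 20.5-, 13.2- and 8.39-fold, and Itgb1 lies near its lower edge at 1.14-fold.

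The 10 genes were ordered by level per kb of exon (CPM per kb, from the union of exons in GENCODE M21). On this scale the order by mean over the tumours was Spp1 (1766), Itgb1 (148), Cd44 (51.1), Itgb5 (44.3), Itgav (26.3), Itga9 (16.7), Itgb3 (9.06), Itga5 (8.22), Itgb6 (4.89) and Itga4 (2.10). Spp1 exceeded each receptor gene in every tumour, with 293 to 6007 CPM per kb against at most 158 for Itgb1. The ranges of the neighbours Cd44 and Itgb5 overlapped, as did those of Itgav and Itga9, Itga9 and Itgb3, Itgb3 and Itga5, and Itga5 and Itgb6. Those of Itgb1 and Cd44 and of Itgb5 and Itgav did not overlap, and Itgb6 and Itga4 met at 2.67 and 2.66 CPM per kb. The ratio of Spp1 to Cd44 on this scale was 8.13, 5.69, 7.99 and 104 in tumours 1 to 4.

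The shares of the partner subunits were compared among transcripts, with sums over the 10 genes alone. In percentage points the shares of Itga9 and Itgav spread most, and by ratio that of Itgb3. Among Itga9, Itgav, Itga5 and Itga4, whose products pair with β1, Itga9 held 25.3, 23.4, 46.3 and 9.27% of the summed CPM per kb in tumours 1 to 4. Itgav held 58.9, 49.5, 35.4 and 72.7% of the same sum, so among these genes alone Itga9 led in tumour 3 and Itgav elsewhere. Itga5 held 12.7 to 20.4% and Itga4 2.60 to 6.78%. Among Itgb1, Itgb5, Itgb3 and Itgb6, whose products pair with αv, Itgb1 held 68.7 to 75.4% and Itgb5 18.2 to 25.6%. Itgb3 held 4.69, 2.80, 8.66 and 1.11% and Itgb6 2.61, 2.88, 1.21 and 2.88%, so Itgb3 was the larger of the pair in tumours 1 and 3 and Itgb6 in tumours 2 and 4. Further partners were measured and are outside these sums, among them Itga8 for β1 and Itgb8 for αv. Itga8 had 59.7, 32.9, 49.3 and 20.6 CPM per kb. That was above Itgav in tumours 1 and 2 (27.9 and 19.4) and above Itga9 in tumour 3 (42.4). With Itga8 counted, the lead among β1 partners would thus differ in tumours 1 to 3. Itgb8 had 40.2, 105, 28.5 and 111 CPM. The shares describe transcripts and were not tested, and protein pairs were not measured.

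**Figure D3:**
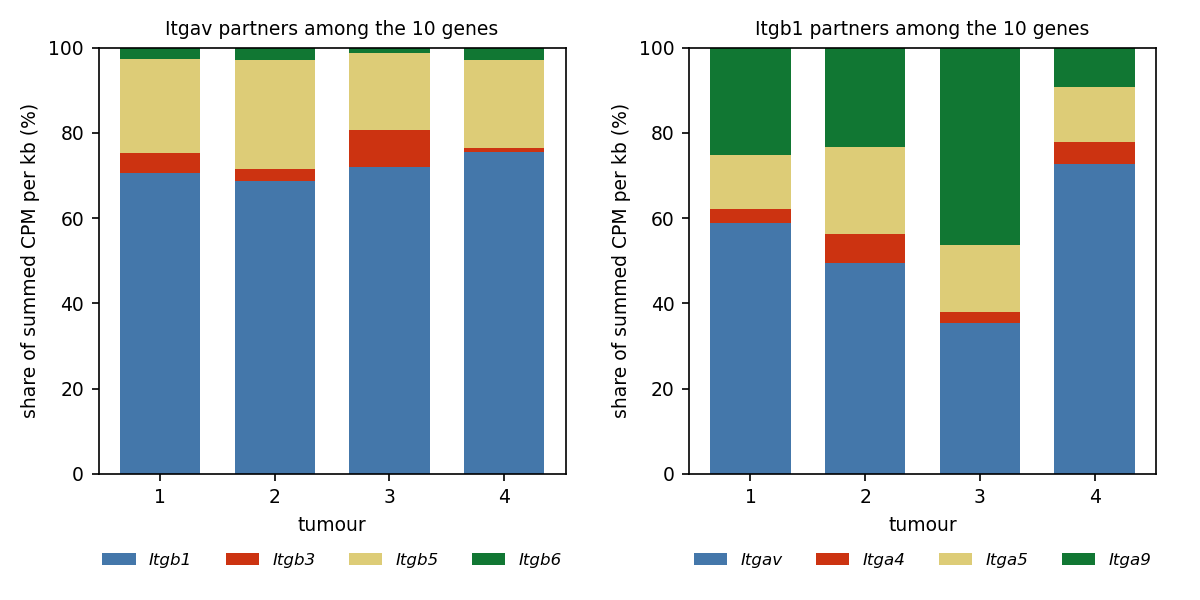
Share of the summed CPM per kb (%) held by Itgb1, Itgb3, Itgb5 and Itgb6 as partners of Itgav, and by Itgav, Itga4, Itga5 and Itga9 as partners of Itgb1, in tumours 1 to 4. Partners outside the 10 genes are not in the sums. Itga9 takes 46.3% of its 4 genes in tumour 3 and 9.27% in tumour 4, while Itgb1 and Itgb5 make up most of the left panel in all 4 tumours.

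In this and the following lists of genes, counts past the test stand beside 3.63% of all genes tested, and median ranges beside 1.72-fold. Other integrin subunits were measured for comparison. Of 17 tested, 0 passed by edgeR, with 3 at an unadjusted p under 0.05 and 0 marked by DESeq2, and their median range was 1.96-fold. Itga6, a laminin receptor subunit, had 667 to 976 CPM, and the most variable was Itgae, a subunit of lymphocytes inside epithelia, at 0.704 to 5.77 CPM. Itga8, whose product pairs with β1 and also binds RGD ligands such as osteopontin, had 347, 191, 286 and 120 CPM and was thus lowest in tumour 4, like Itga9 and Itgb3. Of 20 genes of the adhesion machinery below integrins 1 passed, with a median range of 1.71-fold. That gene was Fermt1, the epithelial kindlin that activates β integrins, with 80.2, 7.79, 32.7 and 42.2 CPM (edgeR adjusted p = 0.0114). Its call was lost without tumour 1 or 2 (0.286 and 1). Tln1, the talin that also activates integrins, had 318 to 420 CPM.

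Other matrix ligands of these integrins were mostly highest in tumour 3. Of 17 tested, 11 were highest there, beside 29.7% of all genes tested. Of the 17, 2 passed, and their median range was 2.47-fold, beside 3.63% and 1.72-fold over all genes tested. Emilin1, a ligand of α4β1 and α9β1, had 23.0, 16.2, 81.1 and 14.8 CPM (edgeR adjusted p = 0.0307), and this call was lost without tumour 2 or 3 (0.138 and 1) and without the filter on low counts (0.0530). Npnt, which encodes nephronectin, a ligand of α8β1, had 182, 143, 20.3 and 107 CPM and was low in tumour 3 (edgeR adjusted p = 0.00952, and 1 without tumour 3). Tnc, the α9β1 ligand tenascin-C, had 264, 490, 1130 and 585 CPM, and Fn1, fibronectin, had 1209, 789, 2558 and 804 CPM. Neither passed, and both were highest in tumour 3, the tumour with the most Itga9 and Itga5. Mfge8, the RGD protein of milk fat globules, was highest in tumour 4 at 3769 CPM, against 1199 to 1664 CPM elsewhere, and did not pass.

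Among enzymes that cut or modify osteopontin, the kinase Fam20c differed most. Fam20c, which phosphorylates secreted proteins including osteopontin and caseins, had 4.82, 81.1, 7.66 and 121 CPM in tumours 1 to 4 (edgeR adjusted p = 2.88e-09). It was high in tumours 2 and 4 and low in tumours 1 and 3, so tumour 2 had much Fam20c and little Spp1. The call held with any tumour left out (edgeR adjusted p up to 0.000786). Fam20c was the 1 gene of 11 tested that passed (3.63% of all genes tested did), and the median range of these enzymes was 2.24-fold. The thrombin gene F2 had 2 counts in tumour 1 and 0 in the others, and Plg, the plasmin precursor, had 0 counts in all, which allows up to 0.0706 to 0.0865 CPM in each library. The product of Plau makes plasmin from its precursor, that of Mmp12 cuts osteopontin and that of Tgm2 cross-links it. These 3 genes were highest in tumour 4 at 55.1, 57.9 and 444 CPM, in that order, and none of these 3 passed. Of the 11 tested, 7 were highest in tumour 4, beside 28.5% of all genes tested. Mmp2 and Mmp9 were highest in tumour 3 at 121 and 19.4 CPM, Mmp3 in tumour 1 and Mmp14 in tumour 2. Ctsd, a lysosomal protease, had 779 to 1746 CPM.

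**Figure D4:**
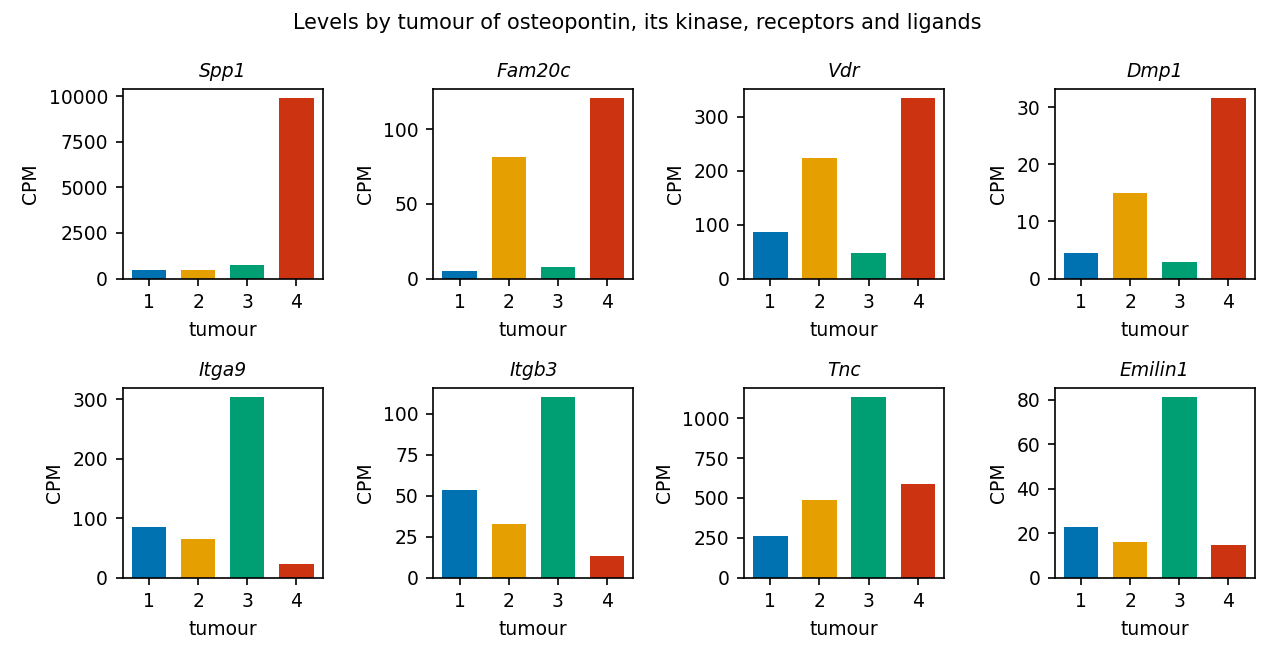
TMM-scaled CPM of Spp1, its kinase Fam20c, the vitamin D receptor Vdr, the Spp1 relative Dmp1, the receptor subunits Itga9 and Itgb3 and the ligands Tnc and Emilin1 in tumours 1 to 4, on linear axes from 0. Spp1 is high in tumour 4 alone, Fam20c, Vdr and Dmp1 are higher in tumours 2 and 4, and the lower 4 genes are highest in tumour 3.

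CD44 also binds hyaluronan, and 1 of 16 tested genes around CD44 and hyaluronan passed, with a median range of 1.66-fold. Over all genes tested these values were 3.63% and 1.72-fold. Has2, a hyaluronan synthase, had 36.3, 5.48, 22.3 and 4.24 CPM (edgeR adjusted p = 0.0239). It was higher in tumours 1 and 3 than in tumours 2 and 4. Without tumour 1, 2 or 4 it did not pass (0.429, 0.145 and 0.119), nor without the filter on low counts (0.0514). Ezr, which encodes ezrin, the link from CD44 to actin, had 244 to 428 CPM.

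The transcription factors reported at the Spp1 promoter did not share its pattern as a list. Of 14 tested, 2 passed, with a median range of 1.98-fold, beside 3.63% and 1.72-fold over all genes tested. Vdr, the vitamin D receptor, a known activator of Spp1, had 86.1, 223, 46.8 and 334 CPM (edgeR adjusted p = 0.00929, and 0.294 without tumour 3). It was highest in tumour 4 and lowest in tumour 3. Etv4, an ETS factor downstream of Met and ERK signalling, had 39.8, 23.7, 98.7 and 10.6 CPM, so it was lowest in tumour 4 (edgeR adjusted p = 0.00521). It did not pass without tumour 3 (0.546) or tumour 4 (0.163). Runx2, the bone factor that activates Spp1, had 3.29, 4.96, 9.20 and 10.3 CPM, and Runx1 had 107, 159, 194 and 177 CPM. Neither passed. Srebf1, a factor of lipid synthesis, was highest in tumour 1 at 790 CPM.

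Spp1 lies on chromosome 5 in a cluster of genes for secreted mineral-binding phosphoproteins, the SIBLING family, and the genes next to it were measured to see whether the region moved together. The nearest gene, Pkd2 (12.9 kb away), had 33.2, 39.8, 39.9 and 40.4 CPM, and Thoc2l (67.3 kb away) had 61.5, 105, 77.7 and 79.7 CPM. In tumour 4 both were close to their levels in tumour 3. Zfp33b (129.5 kb away) and Gm31255 (162.9 kb away) were lower in tumour 4 than in tumour 3. They had 17.8 against 28.3 CPM and 1.63 against 2.87 CPM, and neither passed. Of the SIBLING genes 1 of 4 was tested and passed, Dmp1, a bone matrix protein gene 221 kb away, with 4.56, 14.999, 2.97 and 31.6 CPM (edgeR adjusted p = 0.0325). It was highest in tumour 4 and next in tumour 2, and it did not pass without tumour 1, 3 or 4 (0.0869, 0.132 and 0.600), without the filter on low counts (0.0717) or among genes of at least 5 CPM (0.0704). Ibsp, the bone sialoprotein gene, had 14 counts in tumour 2, 65 in tumour 3 and 0 in tumours 1 and 4, Dspp had at most 4 counts, and Mepe had 0 counts in all 4. Sparcl1, 321 kb away, had 668, 2173, 240 and 218 CPM and was thus lowest in tumour 4 (edgeR adjusted p = 0.000431, and 0.723 without tumour 2). Of the 5 protein-coding genes on each side 9 were in the table. Of these 6 were tested and 2 passed, Dmp1 and Sparcl1, beside 3.63% of all genes tested.

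Markers of cells that make osteopontin were compared with Spp1. Secretory alveolar genes, since osteopontin is also a milk protein, summed to 424, 6263, 3100 and 33540 CPM in tumours 1 to 4, and 9 of 10 tested passed, with a median range of 168-fold. Their sum and Spp1 were both highest in tumour 4, but tumour 2 had more of these genes than tumour 3 and less Spp1. Csn2, which encodes β-casein, had 22.6, 489, 183 and 8452 CPM (edgeR adjusted p = 5.57e-18) and passed with any tumour left out. The calls of Csn3, Lalba and Csn1s2b were lost without tumour 1 (edgeR adjusted p = 0.0890), tumour 3 (0.541) and tumour 4 (1), in that order. Basal epithelial markers summed to 94.5, 149, 161 and 369 CPM, and 4 of 6 passed, Krt14, Krt5, Trp63 and Oxtr, with a median range of 19.3-fold. Krt5, a keratin of basal cells, had 1.58, 4.07, 0.678 and 87.0 CPM. Acta2, the basal marker with the highest mean, made up much of the sum in tumours 1 to 3. It went the other way, with 72.8, 109, 112 and 63.0 CPM, lowest in tumour 4, and did not pass. Without tumour 4 the calls of Krt5, Trp63 and Oxtr were lost (edgeR adjusted p = 0.644, 1 and 1). Luminal markers summed to 2351, 3644, 3076 and 3912 CPM, and 1 of 6 passed, Krt19, a keratin of simple epithelia, at 11.6, 147, 40.8 and 370 CPM. The part of these cells in the Spp1 level was not tested.

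Summed macrophage markers did not follow Spp1. They stood at 735, 1279, 852 and 1086 CPM, highest in tumour 2, and the median range of the genes was 1.70-fold. By gene, 7 were highest in tumour 2 and 3 in tumour 4, and 28.5% of all genes tested were highest in tumour 4. Of 11 tested, 0 passed by edgeR, with 1 at an unadjusted p under 0.05 and 0 marked by DESeq2, and Marco had no more than 3 counts in any library. Lyz2, the lysozyme gene of myeloid cells, had 177, 364, 222 and 387 CPM and was highest in tumour 4. Cd14, the most variable, had 41.0 to 151 CPM and was highest in tumour 2. Markers of lipid-associated macrophages, a state in which Spp1 is often high, summed to 1333, 1927, 2447 and 1875 CPM, and 2 of 11 passed, with a median range of 2.89-fold. Fabp5, which did not pass, had 281, 215, 854 and 218 CPM and made up much of the sum in tumour 3. Of the 11 genes 5 were highest in tumour 4, beside 28.5% of all genes tested, and 3 each in tumours 2 and 3. Lpl and Cd36 were among the 5, with 65.0 and 64.7 CPM in tumour 4, and did not pass. Gpnmb was highest in tumour 4, at 23.7, 13.9, 10.5 and 74.3 CPM (edgeR adjusted p = 0.0158). That call was lost without tumour 2 (0.0743) or tumour 4 (1). Trem2, a receptor typical of this state, had 15.6, 20.2, 13.8 and 23.0 CPM and did not pass. Fabp4 was highest in tumour 3, at 90.9 CPM, and lowest in tumour 4, at 7.91 CPM (edgeR adjusted p = 0.000671, and 1 without tumour 3). The part of macrophages in the Spp1 level was not tested.

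Of the bone cell markers some were at or near 0 and others were not. Bglap, which encodes osteocalcin, had 0 counts in every tumour, and Sp7, a factor of osteoblasts, had at most 0.626 CPM. The osteoblast and chondrocyte list had 5 tested genes, of which only Dmp1 passed, and its sum of 774, 867, 1069 and 1478 CPM came mostly from Col1a1. Alpl, an alkaline phosphatase also found outside bone, had 109, 64.3, 40.6 and 77.9 CPM. Osteoclast markers summed to 51.6, 76.5, 68.7 and 84.0 CPM, with Acp5, a phosphatase that macrophages also express, at 25.0 to 44.2 CPM and Calcr, the calcitonin receptor, at 0 in tumours 1, 2 and 4 and at 0.0261 CPM in tumour 3. The 1 of 6 that passed was Dcstamp, needed for the fusion of osteoclasts, at 2.85 CPM in tumour 1 and at most 0.463 CPM elsewhere (edgeR adjusted p = 0.0163). It was lost without tumour 1 (1) or tumour 2 (0.0859) and without the filter on low counts (0.582). No gene passed by edgeR among 7 fibroblast, 6 endothelial, 2 platelet and 9 hypoxia genes tested. At an unadjusted p under 0.05 they had 0, 0, 1 and 2, and DESeq2 marked 0 in each. Summed fibroblast markers were 2421, 2890, 3316 and 3665 CPM, and summed hypoxia genes 2448, 1843, 2590 and 2782 CPM.

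**Figure D5:**
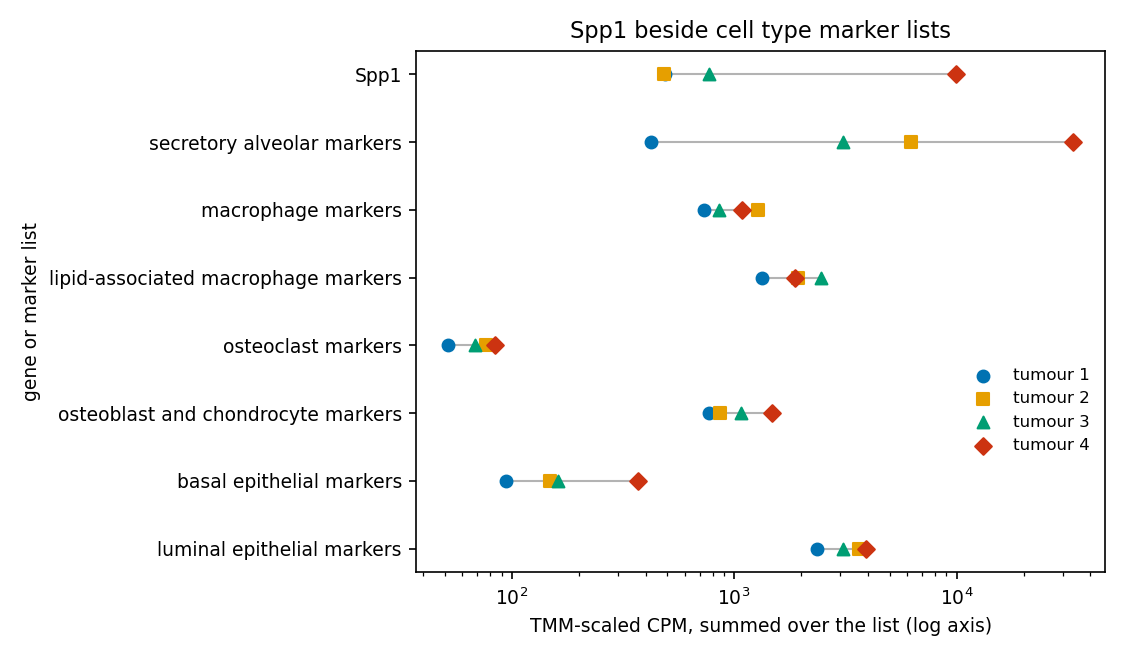
TMM-scaled CPM on a log axis of Spp1 and of 7 marker lists, each summed over its genes, in the 4 tumours. Sums of secretory alveolar, basal, luminal, osteoclast, and osteoblast and chondrocyte markers are highest in tumour 4, as Spp1 is. They reach 33540, 369, 3912, 84.0 and 1478 CPM there, in that order. Summed macrophage markers span only 735 to 1279 CPM and are highest in tumour 2. The sum of lipid-associated macrophage markers is highest in tumour 3, where Fabp5 alone has 854 CPM.

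The genes whose pattern over the 4 tumours was most like that of Spp1 were found among 11005 protein-coding genes whose mean reached 5 CPM. The measure was the root mean square difference of log2 CPM after centring each gene on its mean. The nearest was Ephb2, an ephrin receptor, at 0.25 log2 units, with 1.36, 2.19, 2.40 and 34.9 CPM. Next came Slc39a8, a zinc transporter (0.51), Nkain2 (0.52), Syt12 (0.53), Gvin1 (0.55), Car2, a carbonic anhydrase (0.58), Btbd11 (0.58) and Slc7a2, a transporter of basic amino acids (0.63). Car2 had 59.1, 19.1, 47.5 and 657 CPM. The measure counts the size of the range besides the order of tumours. Genes with a far wider range than Spp1, such as Csn2 (374-fold), or a far narrower one could therefore not come near. Ephb2, Nkain2, Syt12 and Btbd11 had under 5 CPM in each of tumours 1 to 3 and reached the mean of 5 CPM through tumour 4. Gvin1, with 3.32, 2.65, 5.13 and 26.6 CPM, also reached it only through tumour 4. Around Itga9 the nearest was Nkd2, an inhibitor of WNT signalling, at 0.10 log2 units, with 147, 134, 561 and 46.7 CPM. Ttc12 (0.16), Tspan13 (0.18), Acpp (0.20) and Slc26a9 (0.21) followed. With 4 tumours such likeness is a description, and no test is given for genes chosen by it.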

How the data were processed

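Poly-A RNA of 4 mammary gland tumours was sequenced as paired reads, per the labels' protocols. The authors deposited whole-number counts per Entrez gene, without normalization. The submitters' processing notes name FastQC and the builds GRCm38 and mm10, while aligner, counter and strand setting were not given in the sources used here. Of 28440 rows, 24480 (86.1%) matched a RefSeq symbol (GRCm38.p6). The number of unused sample columns was 0.

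The tests used edgeR 4.0.16 (R 4.3.3) on these counts. Genes with at least 10 counts at the median library size in all tumours and 15 in total were kept (15808), and libraries were TMM-scaled (log2 CPM with a prior count of 2). With 1 group there is no contrast, so a negative binomial model with only an intercept was fitted to each gene, with its dispersion taken from the trend. The deviance was tested against chi-square and p-values were adjusted over all genes after Benjamini and Hochberg. The biological coefficient of variation of the trend ran from 0.331 to 0.514. Alternatives were RLE or library-size scaling, other filters, Holm adjustment, other prior counts, DESeq2 1.42.0 dispersion outliers and each tumour left out.

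The 10 genes and the 18 gene lists (190 genes, 189 in the table, 169 tested, some in 2 lists) were chosen with earlier results of these data known. Named genes were the 10 genes, in each list that of the highest mean CPM, the most variable and those past the test, the genes nearest to Spp1 (8) and Itga9 (5) in pattern, and 5 genes on each side of Spp1. Not all are described, and a few further genes were picked as examples with their values known. Floors for 0 counts are 3 counts.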

Additional observations from a re-analysis of the deposited data

Results flagged for a closer look

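Genes that were not chosen for their spread or pattern (the 9 receptor genes, the gene of highest mean CPM in each list and the genes beside Spp1) were looked at for 1 tumour far from the others. Of 32 such genes tested, 2 had a gap to the nearest other tumour, on the log2 CPM scale, above the 95% critical value of Dixon's test for 4 samples. Chance gives such a gap in about 1 of 20 genes, which is close to this count, and this choice of genes was made after seeing the data. Itgb6 was lowest in tumour 3 at 16.2 CPM, against 31.3 to 35.8 CPM in the others. Pkd2, the gene next to Spp1, was lowest in tumour 1 at 33.2 CPM, against 39.8 to 40.4 CPM.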

How the results depend on the processing

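The highest tumour of each of the 10 genes was the same under TMM, RLE and library-size scaling, and so was the lowest, except that Itgb5 was lowest in tumour 4 by library size alone. Tumour 4 had 12.8 times the Spp1 of the next tumour, 12.9 and 12.1 times under RLE and library-size scaling, and 1.59 to 20.3 times with each tumour left out, the lowest being tumour 3 over tumour 1 once tumour 4 was left out. The 574 genes past the test became 895 without a count filter, 198 with Holm adjustment and 91 as DESeq2 dispersion outliers, and 367 to 417 with each tumour left out. The 2 receptor genes became 1 with Holm adjustment and 0 by DESeq2, and 0 to 2 with each tumour left out. Without tumour 3, edgeR called 0 with 2 at an unadjusted p under 0.05. Of listed genes 25 passed, 14 with Holm adjustment, 8 by DESeq2 and 16 to 20 with each tumour left out. Of the genes beside Spp1 2 passed, 1 with a mean of at least 5 CPM, 0 with Holm adjustment and by DESeq2 (2 at an unadjusted p under 0.05), and 1 with any tumour left out. Wap could not be tested without tumour 4. Shares per kb and the order of levels did not change places with principal transcript lengths, an alternative chosen after seeing the data, as were the runs on the genes beside Spp1. No paired analysis was possible because the tumours form 1 group.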
